A study of Caenorhabditis elegans with 2 samples.

Results

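Of the 545 reproducible binding regions reported for the transcription factor HLH-4 in first-stage Caenorhabditis elegans larvae, 274 (50.3%, interval 45.99% to 54.6%) had no E-box with a G/C centre at their summit. They were chosen as the authors' optimal peaks whose sequence within 50 bp either side of the summit held neither the E-box CAGCTG nor its relative CACCTG, which reads CAGGTG on the other strand. The name E-box-free covers this window only, since 79 of the 274 (28.8%) held such a site elsewhere in the peak region. The other 271 optimal peaks held at least 1 such site in the window and are called peaks with the E-box. Signal, reproducibility and sequence therefore chose the E-box-free peaks, and what follows describes their values, places, genes and other sequence words.

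The study mapped HLH-4 on chromatin by ChIP-seq, in which DNA bound to a precipitated protein is sequenced, in 2 biological replicates that form 1 group. Both replicates were whole hermaphrodites of strain OP523, genotype unc-119(tm4063) III; wgIs523, whose integrated transgene wgIs523 encodes HLH-4 fused at its C-terminus to GFP and FLAG. Larvae were synchronized by starvation after bleaching and collected 6 hours later, chromatin was sheared by sonication, and per the protocol the precipitation used an antibody against GFP. Both replicates carried the unc-119 allele and the transgene, so no untagged or wild-type group was compared, and whole larvae do not show in which cells a region was bound. A ChIP-seq peak is a stretch of genome with an excess of sequenced fragments, its summit the place of highest excess, and its signal value the authors' measure of that excess.

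HLH-4 belongs to the Achaete-Scute family of basic helix-loop-helix (bHLH) proteins, which bind DNA as dimers and contact the hexamer CANNTG, the E-box. Proneural members of this family are known to prefer G/C-centred E-boxes, and HLH-4 is known from the ADL chemosensory neurons, where it acts on chemoreceptor genes.

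The sequences that recurred at the E-box-free peaks are shown first, since the rest of the account turns on them. Their leading 10-base word was AGGAGTACAC (GTGTACTCCT on the other strand), called the core here. The lines below give 61 bases around it at Y56A3A.7 and at 6 peaks that also held the leading 8-base word ACTCCTCT (AGAGGAGT on the other strand), on the strand that reads the core as written. The 6 are not the strongest of their kind, since F56G4.6, cux-7 and W04C9.4 held both words and were stronger than all 6. Y73B6BL.29, Y38C1AA.12 and lrpr-1 held both words as well and were stronger than some of the 6. None of these is printed here. Capitals mark the best match to the core, and all sequences here are RefSeq's WBcel235 (ce11) reference.
Y56A3A.7, chrIII:11946529-11946589, minus strand: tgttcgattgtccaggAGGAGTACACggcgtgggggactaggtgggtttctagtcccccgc
ced-5, chrIV:10483889-10483949, minus strand: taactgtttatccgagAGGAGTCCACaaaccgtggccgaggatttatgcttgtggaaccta
no gene in reach, chrIV:16415758-16415818, plus strand: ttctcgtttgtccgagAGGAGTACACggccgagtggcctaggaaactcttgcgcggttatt
cyn-10, chrII:6913458-6913518, plus strand: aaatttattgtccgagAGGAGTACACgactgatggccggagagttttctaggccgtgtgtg
F26G1.1, chrII:4791450-4791510, minus strand: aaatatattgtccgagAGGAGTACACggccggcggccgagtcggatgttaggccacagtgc
gfm-1, chrII:13117294-13117354, minus strand: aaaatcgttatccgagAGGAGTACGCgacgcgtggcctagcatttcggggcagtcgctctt
R166.2, chrII:10538121-10538181, minus strand: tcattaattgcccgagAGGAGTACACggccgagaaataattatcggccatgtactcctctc
The copies shared more than the core: most read tccgag just before it, several read ggccg just after it, and a second word, TGGCCTAG or its reverse complement CTAGGCCA, often followed.

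A second sequence was found by searching the E-box-free peaks on the X chromosome. It was TCGCGCAGG (CCTGCGCGA on the other strand), the leading 9-base word at E-box-free peaks on X, called the X element here. Its letters lie within the motif known as MEX from the sites that recruit the dosage compensation complex to X. The lines below show it in capitals at 5 peaks on X, each with 20 bases on either side, on the strand that reads it as written.
F20B6.9, chrX:4209247-4209295, minus strand: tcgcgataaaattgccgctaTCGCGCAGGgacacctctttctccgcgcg
no gene in reach, chrX:6296554-6296602, plus strand: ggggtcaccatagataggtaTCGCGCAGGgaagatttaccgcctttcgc
no gene in reach, chrX:8036413-8036461, plus strand: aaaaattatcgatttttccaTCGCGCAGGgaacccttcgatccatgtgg
no gene in reach, chrX:11094207-11094255, minus strand: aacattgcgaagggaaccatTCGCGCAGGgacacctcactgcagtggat
nspc-17, chrX:14525881-14525929, minus strand: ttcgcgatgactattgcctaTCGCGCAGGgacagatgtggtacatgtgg
All 5 are exact copies.

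The strongest E-box-free peak, at the chemoreceptor gene srz-11, held neither sequence. Its summit window held TTCCAAGAA, shown in capitals below at srz-11, at a peak without a gene, at the nuclear receptor gene nhr-17 and at the chemoreceptor gene srv-4.
srz-11, chrV:15162866-15162914, plus strand: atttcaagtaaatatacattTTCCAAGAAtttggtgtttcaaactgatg
no gene in reach, chrIV:6511947-6511995, plus strand: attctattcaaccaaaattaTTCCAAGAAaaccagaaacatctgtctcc
nhr-17, chrX:12669089-12669137, minus strand: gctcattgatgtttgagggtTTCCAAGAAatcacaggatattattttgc
srv-4, chrIV:4288443-4288491, plus strand: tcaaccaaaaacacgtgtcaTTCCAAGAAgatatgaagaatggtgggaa
These 9 bases fit the gapped palindrome TTCNNNGAA.

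The summit windows of the 5 peaks at ribosomal protein genes held from 36.6% G and C at rps-24 to 57.4% at rpl-3. Those of rpl-35 and rpl-15, genes for proteins of the large ribosomal subunit, are printed on the plus strand, with AGTGTGCG, GGAGCGTG and their reverse complements in capitals.
rpl-35, chrIII:7854635-7854735, plus strand: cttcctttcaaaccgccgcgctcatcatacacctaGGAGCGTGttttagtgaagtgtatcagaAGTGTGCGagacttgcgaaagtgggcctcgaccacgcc
rpl-15, chrIV:654858-654958, plus strand: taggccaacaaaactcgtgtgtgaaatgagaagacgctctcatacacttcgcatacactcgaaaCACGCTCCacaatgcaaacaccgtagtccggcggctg
Finally, the 3 strongest peaks that lacked the core, the X element and TTCCAAGAA are shown by the 61 bases centred on their summits, on the plus strand.
no gene in reach, chrV:10465680-10465740: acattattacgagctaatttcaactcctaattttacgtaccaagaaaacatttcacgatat
C25E10.17, chrV:9049441-9049501: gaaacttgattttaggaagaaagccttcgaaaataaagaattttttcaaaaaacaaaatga
srh-140, chrV:15721601-15721661: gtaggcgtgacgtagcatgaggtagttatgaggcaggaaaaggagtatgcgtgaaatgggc

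The E-box-free peaks were spread over the whole strength range of the optimal set. Signal values ran from 43.1 to 354.7 with a median of 62.9, against 43.1 to 379.5 with a median of 67.1 at peaks with the E-box. Their share was 39.7% (interval 31.4% to 48.4%) among pooled ranks 1 to 136, then 53.7% at ranks 137 to 272, 51.5% at ranks 273 to 408 and 56.2% at ranks 409 to 545. Because strength chose both sets, these shares are a description. Regions past rank 15000 of the pooled list that overlapped no optimal peak lacked the E-box far more often (14287 of 14976, 95.4%). Those 14287 regions serve below as background, and every interval is a 95% exact Clopper-Pearson interval over regions that covers counting error only.

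The shape of the E-box-free peaks differed. Of the 274, 25 (9.12%) were narrower than the full 330 bp, against 82 of 271 (30.3%) at peaks with the E-box, a difference of -21.1 percentage points (two-sided Fisher's exact test, adjusted p = 1.1e-09 over 3 measures added after their values were seen). Peaks are regions of the same 2 libraries and not replicates, so this p and those below compare 2 sets of regions. It was smaller in each replicate alone, -7.55 points in replicate 1 and -13.1 in replicate 2. With an E-box window of 25 bp it was -13.6 points, and among pooled ranks 1 to 272 it was -33.4. The exact test's threshold of 0.05 was passed in each of these. Width was tied to the choice of the sets, however. In full-width regions the summit is only the midpoint, so width bears on where the E-box window fell. Width also went with strength, since every narrower E-box-free peak had a pooled rank of 169 or better. The difference in width is therefore a description.

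Both replicates recorded nearly all of the E-box-free peaks. Replicate 1 had an overlapping region at 272 of the 274 and replicate 2 at 271, and the optimal set was chosen for such agreement. Signal in replicate 1 ran from 7.06 to 164.8 (median 27.7) and in replicate 2 from 13.6 to 193.1 (median 36.0). No common scale of the replicate lists is given in the sources used here, so ranks within each list are the better guide. Across the 269 peaks with a region in both, Pearson's r was 0.68 and Spearman's rho 0.39, and r was 0.48 without the peaks at pooled ranks 1 to 20. At the 270 peaks with the E-box found in both, r was 0.82 and rho 0.60. These correlations are across peaks that share their 2 libraries and are given as a description.

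Among the 545 strongest regions of each replicate, both held 160 of the 274 E-box-free peaks (58.4%, interval 52.3% to 64.3%) and 176 of the 271 peaks with the E-box (64.9%, interval 58.9% to 70.6%). The difference of -6.55 percentage points is a description, since strength in both replicates entered the choice of the optimal peaks. A further 47 E-box-free peaks were among the strongest of replicate 1 only, 57 of replicate 2 only, and 10 of neither. When the same sequence rule was applied to each replicate's own 545 strongest regions, 313 (57.4%) in replicate 1 and 306 (56.1%) in replicate 2 lacked the E-box, a mean of 56.8% ± 0.91 (SD, n = 2). Of these regions, 198 in replicate 1 and 206 in replicate 2 overlapped 1 of the 274 E-box-free peaks. Shares of sequences in them, given below, are thus mostly recounts of the same peaks and no independent check.

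**Figure D1:**
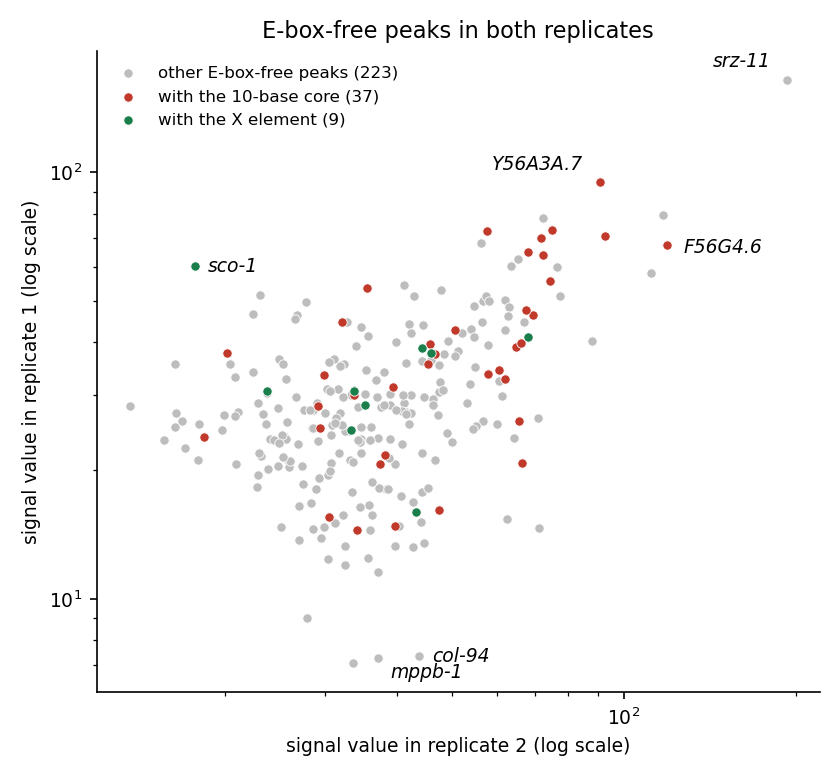
Signal value of each E-box-free peak in replicate 1 (vertical axis) against replicate 2 (horizontal axis), both on log scales, for the 269 peaks with a region in both. Red points are the 37 peaks with the core, green points the 9 with the X element and grey points the rest; srz-11 stands at 164.8 and 193.1, while sco-1, col-94 and mppb-1 lie far from the main cloud.

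The ranks of the strongest peaks were close in both replicates at some and further apart at others. srz-11 had a signal of 164.8 in replicate 1 and 193.1 in replicate 2 and ranked 2 in each list. F56G4.6 had 67.7 in replicate 1 and 119.0 in replicate 2, at ranks 23 and 8. Y56A3A.7 had 94.9 in replicate 1 and 90.8 in replicate 2, at ranks 7 and 18. None of these 3 left the leading 25 of either list. A peak without a gene in reach, at chrV:10465613-10465803, had 79.3 in replicate 1 and 117.1 in replicate 2. C25E10.17 had 58.2 in replicate 1 and 111.8 in replicate 2, at ranks 50 and 12. rpl-15 ranked 130 in replicate 1 and 23 in replicate 2, whereas cyn-10 ranked 17 and 97 and the peak at chrIV:6511890-6512030 ranked 21 and 108.

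The 20 strongest E-box-free peaks lay at 15 genes and at 5 places without a gene in reach. Besides those named, the genes were cux-7, W04C9.4, the chemoreceptor gene srh-140, ced-5, which encodes a DOCK180-like protein needed for the engulfment of dying cells, T07F10.3, R02F11.2, rpl-15, W02H5.19, the cyclophilin gene cyn-10, F20B6.9 and C49A9.10. Pooled signal over the 20 ran from 111.1 at C49A9.10 to 354.7 at srz-11. Of these 20 peaks, 9 held the core, 1 held the X element and 2 held TTCCAAGAA.

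At some E-box-free peaks the replicates were far apart, and the most extreme are given first. At col-94, a cuticle collagen gene, the signal was 7.34 in replicate 1 (rank 26139) and 43.8 in replicate 2 (rank 200). At mppb-1, which encodes a subunit of the mitochondrial processing peptidase, it was 7.28 (rank 26577) and 37.1 (rank 292). A peak at chrIV:17228271-17228600 had 7.06 in replicate 1 (rank 28309) and 33.5 in replicate 2 (rank 347). In the other direction, srz-97 ranked 432 in replicate 1 and 3814 in replicate 2, kin-14 ranked 176 and 3074, and the peak at chrX:5175136-5175465 ranked 285 and 6626. K11D12.14 and cox-5A overlapped no region of replicate 1, and F32D8.14, dnj-9 and a peak at chrIII:1925205-1925534 overlapped none of replicate 2. All 11 of these peaks had pooled ranks between 289 and 541, but large differences were not confined to that range. sco-1, at pooled rank 126, ranked 44 in replicate 1 and 2171 in replicate 2. tos-1, at pooled rank 142, ranked 2348 in replicate 1 and 50 in replicate 2.

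Most E-box-free summits were near a gene start. Of the 274, 174 (63.5%, interval 57.5% to 69.2%) were in reach of the start of a protein-coding gene, that is, at most 2000 bp upstream or 500 bp downstream of it, against 149 of 271 peaks with the E-box (54.98%, interval 48.8% to 61.0%) and 41.6% of lower-ranked E-box-free regions. The difference between the optimal sets was 8.52 percentage points, with p = 0.045 by Fisher's two-sided exact test. That exact test's threshold was missed with an E-box window of 25 bp (6.02 points, p = 0.20), among pooled ranks 1 to 272 (8.11 points, p = 0.21), with a reach of 5000 bp upstream and 1000 bp downstream (1.69 points, p = 0.67), or in either replicate alone (5.29 points, p = 0.22, in replicate 1 and 0.613 points, p = 0.93, in replicate 2). With 1000 bp upstream and 200 bp downstream it was 9.41 points (exact p = 0.032).

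A place between 2 genes read away from each other separated the sets more clearly. Such summits, with a divergent start within 1000 bp on each side, numbered 38 of 274 (13.9%, interval 10.005% to 18.5%) among E-box-free peaks and 10 of 271 (3.69%, interval 1.78% to 6.68%) among peaks with the E-box. The difference of 10.2 percentage points passed the two-sided Fisher's exact test (adjusted p = 4.3e-05 over the 3 added measures) and passed in every alternative run, with values from 5.74 points (a 25 bp window) to 13.3 points (a 100 bp window). The alternative runs mostly recount the same peaks, so they are no independent check. Summits within 300 bp of a start made up 36.1% of E-box-free peaks and 27.3% of peaks with the E-box, against 11.8% of lower-ranked regions. That difference of 8.83 points passed the exact test (adjusted p = 0.028) but not in replicate 2 alone (3.81 points, adjusted p = 0.35), among pooled ranks 1 to 272 (8.73 points, adjusted p = 0.15) or with the 25 bp window (6.17 points, adjusted p = 0.17).

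**Figure D2:**
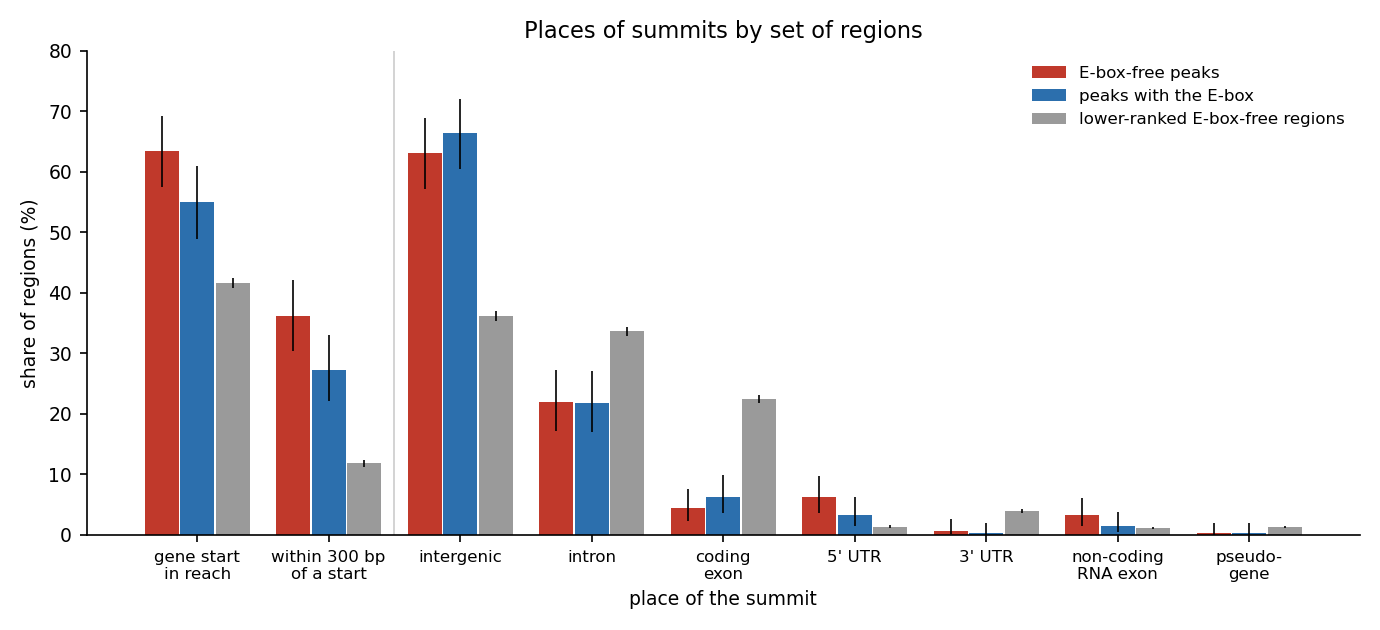
Share of summits (%) with a protein-coding gene start in reach, within 300 bp of a start, and in each annotated feature, for E-box-free peaks (red, 274), peaks with the E-box (blue, 271) and lower-ranked E-box-free regions (grey, 14287). Bars are shares and lines 95% exact intervals; both optimal sets stand apart from the lower-ranked regions in intergenic sequence and coding exons, while their features overlap each other.

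Most E-box-free summits were intergenic, 173 of 274 (63.1%), and 60 (21.9%) lay in introns. A further 17 (6.20%) lay in 5' UTRs, 12 (4.38%) in coding exons, 9 (3.28%) in exons of non-coding RNA genes, 2 in 3' UTRs and 1 in a pseudogene. At peaks with the E-box the counts were 180 intergenic, 59 in introns, 9 in 5' UTRs, 17 in coding exons, 4 in non-coding RNA exons, 1 in a 3' UTR and 1 in a pseudogene. None of the 7 features passed a test between the sets (two-sided Fisher's exact tests, adjusted p from 0.81 to 1). Lower-ranked E-box-free regions lay in coding exons far more often (22.4%).

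The sets were distributed unequally over chromosomes. Chromosome III held 44 of the 274 E-box-free peaks (16.1%) and 13 of the 271 peaks with the E-box (4.80%), a difference of 11.3 percentage points (two-sided Fisher's exact test, adjusted p = 0.000109 over 6 chromosomes, tested after the counts were seen). Chromosome V held 66 E-box-free peaks (24.1%) and 98 with the E-box (36.2%), a difference of -12.1 points (exact test, adjusted p = 0.0082). The chromosome III difference passed in every alternative run, whereas that of chromosome V missed the exact test's threshold with E-box windows of 25 bp (-5.40 points, adjusted p = 0.30) and 100 bp (-8.55 points, adjusted p = 0.071). Here too the alternative runs mostly recount the same peaks and are no independent check. Counts on chromosomes I, II, IV and X were 35, 44, 37 and 48 for E-box-free peaks and 19, 43, 53 and 45 for peaks with the E-box, and did not pass (adjusted p from 0.062 to 1).

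The E-box-free summits were richer in G and C, with a mean of 41.1% ± 10.3 within 50 bp, against 36.9% ± 5.90 at peaks with the E-box and 32.8% ± 7.94 at lower-ranked regions (SD over regions). Soft-masked bases, which RefSeq marks as repeats, held 60 of the 274 summits (21.9%), 64 of 271 summits with the E-box (23.6%) and 35.9% of the lower-ranked ones. The masked share of the 6 chromosomes was 35.7%.

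The core was the leading recurring sequence at E-box-free summits. With at most 1 mismatch on either strand it lay within 50 bp of 38 of the 274 (13.9%, interval 10.005% to 18.5%), against 2 of 271 peaks with the E-box (0.738%) and 53 of 14287 lower-ranked regions (0.371%). Exact copies lay at 23 E-box-free peaks (8.39%), 1 peak with the E-box and 7 lower-ranked regions. The leading 8-base word alone was at 28 E-box-free peaks (10.2%), 1 peak with the E-box and 25 lower-ranked regions (0.175%). These words were picked on the same peaks, so the shares are a description with no test. In windows centred 300 bp to the left and right of the summits the core was at 1 and 0 of the 274.

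**Figure D3:**
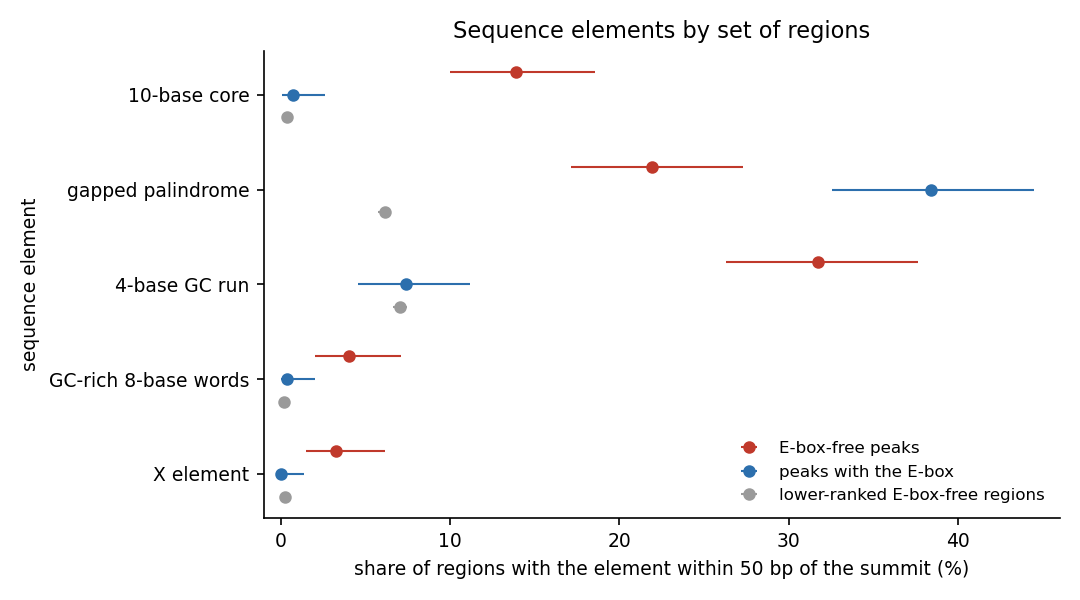
Share of regions (%) with each sequence element within 50 bp of the summit, with 95% exact intervals, for E-box-free peaks (red), peaks with the E-box (blue) and lower-ranked E-box-free regions (grey). The core stands at 13.9% in E-box-free peaks and 0.738% in peaks with the E-box, whereas the gapped palindrome is at 21.9% and 38.4%; the 4-base GC run is CGCG and the GC-rich 8-base words are AGTGTGCG and GGAGCGTG.

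The core became rarer with rank. It was at 20 of the 54 E-box-free peaks of pooled ranks 1 to 136 (37.0%, interval 24.3% to 51.3%), at 8 of 73, 4 of 70 and 6 of 77 in the next 3 ranges, and at 10 of 339 E-box-free regions of ranks 546 to 1000 (2.95%). Past rank 1000 it was below 1% in each range of ranks. The strongest E-box-free regions of each replicate, most of which overlapped the peaks the core was picked on, held it at 34 of 313 in replicate 1. In replicate 2 they held it at 37 of 306, a mean of 11.5% ± 0.869 (SD, n = 2). Most genomic copies were not at a summit: of 445 exact copies on the 6 chromosomes, 25 were within 50 bp of an E-box-free summit and 52 within 50 bp of any of the 30000 pooled summits.

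**Figure D4:**
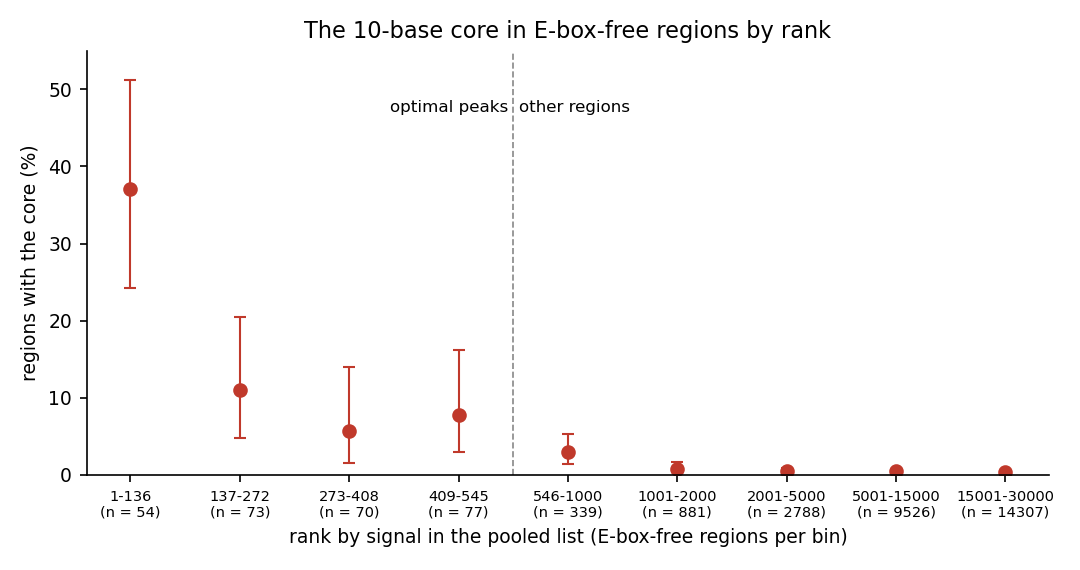
Share of E-box-free regions with the core (%) by rank in the pooled list, with 95% exact intervals and the number of regions under each bin; the dashed line marks the end of the optimal peaks. The share is 37.0% in the first bin, between 5.71% and 10.96% in the following bins of optimal peaks, and under 1% past rank 1000.

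Most core peaks were among the stronger regions of both libraries, with exceptions in each. Their pooled signal ran from 45.7 to 192.1 with a median of 91.2, against a median of 59.5 at the 236 E-box-free peaks without the core. Their median rank was 163 in replicate 1 and 140 in replicate 2, where 37 of the 38 had a region, against 312 and 325.5 for the others. Of the 38, 29 (76.3%) were among the 545 strongest of both replicates, against 131 of 236 (55.5%). ced-5 had 65.1 in replicate 1 and 68.0 in replicate 2, and cyn-10 had 72.9 and 57.6. T07F10.3, with 1 mismatch in the core, had 64.1 and 72.3. The lowest core peak in replicate 1 was that of wrm-1, a gene for a beta-catenin of the Wnt pathway, with 14.5 in replicate 1 (rank 2473) and 34.2 in replicate 2 (rank 336). C01B10.9 and Y106G6H.16 also ranked low in replicate 1, at 2246 and 1838, and algn-14 ranked 1843 in replicate 2. The core peak at F32D8.14 had 35.6 in replicate 1 (rank 170) and overlapped no region of replicate 2.

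The core lay mostly close to gene starts. Of the 38 core peaks, 35 (92.1%, interval 78.6% to 98.3%) had a gene start in reach, 29 (76.3%) lay within 300 bp of one, and 14 (36.8%, interval 21.8% to 54.0%) lay between divergent starts. At the other 236 E-box-free peaks the counts were 139 (58.9%), 70 (29.7%) and 24 (10.2%). The median distance to the nearest start was 116 bp at core peaks and 938.5 bp at the others. No core summit was in a coding exon, and 7 were in 5' UTRs. The 38 peaks were on all 5 autosomes, with 6, 8, 8, 7 and 9 on I to V, and none was on X (upper limit 9.25%), where 48 of the 236 others lay. Of the 35 with a gene in reach, the core read on the gene's own strand in 12.

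**Figure D5:**
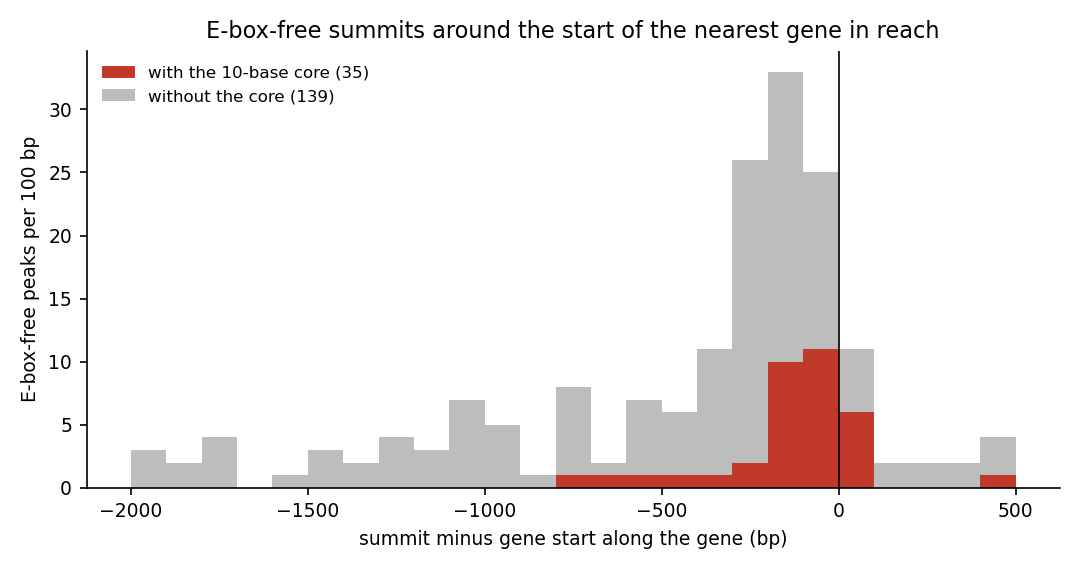
Number of E-box-free peaks per 100 bp by the position of the summit relative to the start of the nearest protein-coding gene in reach, along the gene (negative is upstream). Red marks the 35 peaks with the core and grey the 139 without it; both crowd just upstream of the start and the grey ones reach out to 2000 bp.

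The core was part of a longer sequence. When the 38 peaks were lined up on it, the commonest base was shared by at least 50% of them at 24 positions in a row, from 9 bases before the core to 5 bases after it. Before the core, T at position -9, T at -6 and C at -4 were each in 35 of 38, C at -5 in 33, and G at -1 in 37. After it, C at position 13 was in 29 and G at position 19 in 30, counting from 1 at the core's first base. The second word, CTAGGCCA with at most 1 mismatch on either strand, was near the summit of 25 of the 38 core peaks (65.8%), 17 of the 236 others (7.203%), 8 of 271 peaks with the E-box (2.95%) and 340 of 14287 lower-ranked regions (2.38%). In the 45 bases after the core it was found at 25 of the 38, as TGGCCTAG in 14 and CTAGGCCA in 11. Along the core's direction the summit lay past its centre at 34 of the 38 peaks, by a median of 13 bp over all 38, on the side of the second word.

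The genes named next are examples from the 35 at core peaks, chosen after their values were seen. gfm-1 encodes a mitochondrial translation elongation factor and mrps-35 a protein of the mitochondrial ribosome, bag-1 an Hsp70 cochaperone, algn-14 an enzyme of protein glycosylation, exoc-7 a subunit of the exocyst and mib-1 a ubiquitin ligase of the Notch pathway. gfm-1 had a signal of 39.6 in replicate 1 and 45.8 in replicate 2, and bag-1 had 26.2 and 65.5. mrps-35 had 16.2 in replicate 1 (rank 1501) and 47.5 in replicate 2 (rank 161).

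The X element was at 9 E-box-free peaks (3.28%, interval 1.51% to 6.14%) with at most 1 mismatch, at 0 of 271 peaks with the E-box (upper limit 1.35%) and at 35 of 14287 lower-ranked regions (0.245%). Exact copies were at 7 E-box-free peaks, all on X, at no peak with the E-box and at 1 lower-ranked region. Of the 9 peaks, 8 were on X and 1 was on chromosome II, at sco-1, a gene for a cytochrome oxidase assembly factor. On X the element was thus at 8 of 48 E-box-free peaks (16.7%, interval 7.48% to 30.2%), 0 of 45 peaks with the E-box and 5 of 2837 lower-ranked E-box-free regions (0.176%). On the autosomes it was at 1 of 226 E-box-free peaks (0.442%) and 30 of 11450 lower-ranked ones (0.262%). The exact sequence occurs 48 times on X and 68 times on the 5 autosomes of the reference. An E-box-free summit lay within 50 bp of 7 of the copies on X and of 0 of those on autosomes. Since the word was picked on these peaks on X, its shares there are a description.

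Peaks with the X element on X were of middle strength and mostly away from gene starts. F20B6.9 was the strongest, with a signal of 41.2 in replicate 1 (rank 126) and 67.8 in replicate 2 (rank 59), and its summit lay 1764 bp upstream of the gene start. The peak at chrX:6296426-6296755, in an intron, had 37.8 in replicate 1 and 46.05 in replicate 2, at ranks 150 and 176. The peak at chrX:8036289-8036618 had 28.5 and 35.2, and that at chrX:11094051-11094380 had 24.9 and 33.2. These 4 were among the 545 strongest of both replicates. The replicates disagreed most at sco-1, with 60.3 in replicate 1 (rank 44) and 17.7 in replicate 2 (rank 2171). Distances to the nearest protein-coding start ran from 226 bp at sco-1 to 15221 bp, and 6 of the 9 peaks had no start in reach. The element as already picked, with at most 1 mismatch, was counted in each replicate's strongest E-box-free regions. It was at 7 of 313 in replicate 1 and 8 of 306 in replicate 2.

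TTCCAAGAA was about as frequent at both kinds of optimal peak. Among E-box-free peaks without the core it was the leading 9-base word, at 13 of 236 (5.51%, interval 2.97% to 9.24%), but it was at 16 of 271 peaks with the E-box as well (5.90%) and at 54 of 14287 lower-ranked regions (0.378%). The runner-up, TTCTAAGAA, showed the same pattern, at 8 of 236 and 12 of 271. Both fit TTCNNNGAA, a gapped palindrome that reads the same on both strands. It was at 60 of 274 E-box-free peaks (21.9%, interval 17.1% to 27.3%), 104 of 271 peaks with the E-box (38.4%, interval 32.6% to 44.5%) and 876 of 14287 lower-ranked regions (6.13%). It was at 63 of 313 strongest E-box-free regions in replicate 1 and 57 of 306 in replicate 2. Of the 60 peaks, 27 (45%) had a gene start in reach and 9 lay within 300 bp of one, and their median GC content was 34.2%, against 45.05% at core peaks.

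TTCNNNGAA had a larger share where an E-box lay just out of the window. The rule's edge put 61 of the 274 peaks (22.3%) close to a G/C-centred E-box whose far end was 51 to 100 bp from the summit, against 4.35% of the lower-ranked E-box-free regions. Of those 61, 24 held TTCNNNGAA (39.3%, interval 27.1% to 52.7%), against 36 of the other 213 (16.9%, interval 12.1% to 22.6%). The median signal was 62.9 in both. srz-11 was among them, with the far end of an E-box 51 bp from its summit, as were abt-2 and a peak at chrIV:16287866-16287991. Just inside the edge, peaks at chrX:7886280-7886500 and chrV:666537-666866 had the far end of their site at 50 bp, with signal values of 232.3 and 47.8. Of the core peaks, 1 of 38 had an E-box at 51 to 100 bp. Anywhere in the peak region outside the window, 79 of the 274 (28.8%) held a G/C-centred E-box, against 1376 of 14287 lower-ranked E-box-free regions (9.63%).

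Other E-box classes had somewhat larger shares than in lower-ranked regions. Any of the 8 classes of CANNTG that the rule allows was at 104 of 274 E-box-free peaks (38.0%, interval 32.2% to 44.0%), 94 of 271 peaks with the E-box (34.7%) and 29.0% of lower-ranked regions. CACGTG, the class known as the G-box, was at 11 E-box-free peaks (4.01%), 3.69% of peaks with the E-box and 1.34% of lower-ranked regions. The class CACATG was at 20 (7.30%), 9.23% and 3.27% of the same sets, the class CAGATG at 23 (8.39%), 6.27% and 3.79%, and the class CAAATG at 36 (13.1%), 11.1% and 8.69%. Shares below those of lower-ranked regions were seen for the class CAACTG, at 6 E-box-free peaks (2.19%) against 5.33%, for the class CAATTG, at 8 (2.92%) against 4.80%, and for the class CATATG, at 3 (1.09%) against 2.05%. In each of these classes the interval at E-box-free peaks overlaps that at peaks with the E-box. One summit with CACGTG lay 66 bp upstream of tos-1, with a signal of 14.7 in replicate 1 (rank 2348) and 71.0 in replicate 2 (rank 50).

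GC-rich words marked a further small group. AGTGTGCG or GGAGCGTG was at 11 E-box-free peaks (4.01%, interval 2.02% to 7.07%), 1 peak with the E-box and 23 of 14287 lower-ranked regions (0.161%). The 11 included rpl-15, rpl-35 and rpl-3, tasp-1, a gene named for a threonine aspartase, spd-5, which encodes a centrosome scaffold protein, and cox-5A, a subunit of cytochrome oxidase. GAGACGCAG was at 7 (2.55%), among them sec-61.G, a subunit of the translocon of the endoplasmic reticulum, drr-2, scrm-4 and hsp-3, which encodes the chaperone BiP. The 4 bases CGCG were at 87 of the 274 (31.8%), against 20 of 271 peaks with the E-box (7.38%) and 7.03% of lower-ranked regions. CGCG was at 23.0% of the strongest E-box-free regions in replicate 1 and 32.4% in replicate 2.

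After these searches 93 of the 274 peaks (33.9%) held none of the core, the X element, TTCNNNGAA, the GC-rich words, GAGACGCAG or another CANNTG. Their median signal was 56.6, and 64 (68.8%) had a gene start in reach. Of the 93, 46 were among the 545 strongest of both replicates, and 14 were on X.

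Protein-coding genes at E-box-free peaks numbered 171 of the 9528 given a region of any strength (1.79%), and 146 of the 9528 were at peaks with the E-box. Both kinds of peak were at 5 genes, C05E11.6, ZC404.15, dnj-9, nhr-17 and srh-140. Sets this small among all genes would share few genes in any case, so the count shows no separation of the sets. Ribosomal protein genes were at E-box-free peaks more often than the 1.79% of all genes, 5 of 36 (13.9%). None of the 36 was at a peak with the E-box, but with 146 of 9528 genes there, 36 are too few to read that as a lack. The 5 were rpl-15, rpl-35, rpl-3, rps-1 and rps-24. rpl-15 had a signal of 40.3 in replicate 1 and 88.1 in replicate 2, and rpl-35 had 32.5 and 60.4. rps-1 had 15.4 in replicate 1 (rank 1905) and 62.5 in replicate 2 (rank 75), while rpl-3 ran the other way, with 44.7 (rank 106) and 32.8 (rank 359). The replicates thus ranked the ribosomal genes differently.

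Translation factor and heat shock genes were at E-box-free peaks in larger shares than the 1.79% of all genes, on counts of 2 and 3. eif-3.C and eif-3.E, for subunits of initiation factor eIF3, were the 2 of 21 translation factor genes at E-box-free peaks (9.52%). None of the 21 was at a peak with the E-box, again too few genes to read as a lack. Among the heat shock genes 3 of 26 (11.5%) were at E-box-free peaks and 1 at a peak with the E-box. hsp-1, which encodes the constitutive Hsc70, had 25.5 in replicate 1 and 54.99 in replicate 2, and hsp-3 had 13.3 (rank 3679) and 32.5 (rank 366). dnj-9 was the third, with 39.0 in replicate 1 and no region in replicate 2.

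More chemoreceptor genes were at peaks with the E-box than at E-box-free peaks. Of 732 given a region, 10 (1.37%) were at E-box-free peaks, near the share over all genes, and 43 (5.87%) at peaks with the E-box. Over all genes, 146 of 9528 were at peaks with the E-box. After srz-11 and srh-140 the next were srd-33, with 2 peaks of 85.5 and 62.9 pooled signal, and srv-4, whose peak had 31.1 in replicate 1 and 30.2 in replicate 2. srh-140 had 78.0 in replicate 1 and 72.1 in replicate 2. No bHLH gene of 16 was at an E-box-free peak, and 2 were at peaks with the E-box. With 1.79% of all genes at E-box-free peaks, 16 genes are too few to read their absence there as a lack.

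Nuclear hormone receptor genes were at E-box-free peaks in 2 of 159 (1.26%), nhr-17 and nhr-157, and at peaks with the E-box in 5. nhr-17 had 35.02 in replicate 1 and 54.8 in replicate 2, and nhr-157 had 30.5 and 47.6. Neuropeptide genes were represented by ins-16, an insulin-like peptide gene (1 of 68), collagens by col-94 (1 of 70), the respiratory chain by cox-5A (1 of 15) and RNA polymerase and Mediator by mdt-26 (1 of 21). No gene of the lists for histones (11), the proteasome (15), the vacuolar ATPase (10), splicing and snRNPs (15), the nuclear pore and transport (19) or ubiquitin (10) was at an E-box-free peak. With 1.79% of all genes at such peaks, lists this short would mostly hold none, so these counts show no lack. Lists were formed by gene symbol, so each is a count of named family members and not a test. Genes of like function under other symbols are left out, as the ubiquitin ligase gene mib-1 is from the ubiquitin list.

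Small non-coding RNA genes were near a few E-box-free summits. A tRNA gene lay at or within 200 bp of 6 of the 274, an snRNA gene of 7 and a snoRNA gene of 7, against 1, 1 and 0 of the 271 peaks with the E-box and 42, 8 and 38 of the 14287 lower-ranked regions. A miRNA gene was that close to 2 E-box-free summits and to no peak with the E-box. Of the E-box-free summits, 3 lay inside a tRNA gene, all on X, at pooled ranks 280, 330 and 532. The last of these ranked 15874 in replicate 1 and 505 in replicate 2. The long non-coding RNA gene linc-128 held the strongest summit inside a non-coding RNA gene, at chrV:1151352-1151681, with 51.3 in replicate 1 and 57.3 in replicate 2.

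The limit of the optimal set was gradual. The weakest E-box-free peaks, at chrX:13145088-13145417 and at nmur-2, a gene for a neuromedin U receptor (chrII:125028-125357), had pooled signals of 43.09 and 43.08 at ranks 544 and 545. The strongest E-box-free regions outside it, at chrV:10320207-10320536 and chrV:18704240-18704569, had 43.06 and 43.02 at ranks 548 and 549.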

How the data were processed

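Headerless peak lists on the ce11 build were used for each replicate, for both pooled, and for the optimal peaks, which a text deposited with the lists says were chosen by irreproducible discovery rate from the other 3. All 545 optimal peaks were the 545 strongest of 30000 pooled regions. The deposited signal value ranked regions within a list, the deposited summit offset gave the summit (the midpoint in full-width regions), and the authors' −log10 q-value entered no result. The sources used here do not give aligner, caller, versions, read counts or the scale of the signal, so depth is unknown. The control was not analysed here.

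Positions are 1-based. Sequence came from RefSeq's WBcel235 and genes from Ensembl release 115. A summit was given the nearest protein-coding start in reach. Where features overlapped, coding exons came before UTRs, then pseudogenes, introns and exons of non-coding RNA. Words within 50 bp of summits, on both strands, were ordered by their share at E-box-free peaks minus that at the lower-ranked E-box-free regions. Those regions lay past pooled rank 15000 and overlapped no optimal peak. Fisher's exact test, two-sided, compared the optimal sets, with Benjamini-Hochberg adjustment over 7 features, 6 chromosomes or 3 added measures and a threshold of 0.05. The functions were tested on simulated data. Tools were Python 3.11.15, scipy 1.17.1, numpy 2.4.6, pandas 2.3.3 and matplotlib 3.10.9.

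Members, lists and the naming rule were chosen with earlier results of these data known. The rule names genes at the 20 strongest E-box-free peaks, up to 4 members of each list, up to 6 peaks with the leading word, the 3 largest rank differences in each direction and the peaks at the limit of the set. Some genes were named outside this rule, among them rps-24, tos-1 and the genes at both kinds of peak. Sequences were printed only off chromosome I and where the stretch overlapped no annotated UTR. The core, the X element, TTCNNNGAA, the GC-rich words and genes named for them, and the tests of chromosomes and of added measures, were chosen after the values were seen.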

Additional observations from a re-analysis of the deposited data

How the results depend on the processing

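The number of E-box-free peaks was 274, and it was 213 to 364 with E-box windows of 100 and 25 bp and 306 to 313 among the strongest regions of a single replicate. It was 127 of 272 among pooled ranks 1 to 272 and 170 when CANNTG of any centre was barred. The promoter difference of 8.52 percentage points was 6.02 with a 25 bp window, 8.11 among pooled ranks 1 to 272 and 1.69 with the wide reach, and from 0.613 to 5.29 with 1 replicate left out. None of these passed the test. The intergenic difference of -3.28 points, which did not pass, was 3.503 with a 25 bp window and 5.94 among pooled ranks 1 to 272. The difference in peaks strong in both replicates of -6.55 points was -7.48 among pooled ranks 1 to 272, a description since strength chose the peaks. The leading word was at 10.2% of E-box-free peaks, 6.20% within 25 bp of the summit, and 7.99% to 9.48% in single replicates, and it led in each. Of the measures added after the values were seen, the 300 bp difference was 6.17 points with the 25 bp window and 8.73 among pooled ranks 1 to 272, and 3.81 to 8.12 with 1 replicate left out. The width difference of -21.1 points was -7.55 to -13.1 with 1 replicate left out, -13.6 with the 25 bp window and -33.4 among pooled ranks 1 to 272. It passed in each, but is a description since width is tied to summit placement and strength. The chromosome V difference was -5.40 and -8.55 points with windows of 25 and 100 bp. The causes were not tested. Of the 54 alternative values, 38 were classed as unchanged, and some of these are among the values above. Those with a test kept their direction and their side of the threshold. For values without a test the class was loose, since the counts of 213 and 364 were in it. No paired analysis was possible because both replicates form 1 group. Depth is unknown, and 2 libraries give no test of the spread between replicates.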
